A study of Mus musculus with 12 samples.

Results

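The mitochondrial respiratory chain was represented by 87 of the 18193 genes measured in peritoneal macrophages (PMs). They were chosen by gene symbol, as nuclear genes whose names begin with the stems of the subunits of complexes I to V, with the Ndufaf assembly factors and the pseudogenes left out (8 genes). Complex I held 35 members, complex II 4, complex III 9, complex IV 18 and complex V, the ATP synthase, 17. The succinate dehydrogenase stems also took in 4 assembly factors of complex II, *Sdhaf1* to *Sdhaf4*, which are not subunits. They are left out of the values of complex II but count among the 87 members. *Ndufa4* was counted in complex IV, where its protein is found. Each gene was read from its brightest probe set over the 12 arrays, and 36 of the 87 members had only 1. A further 10 probe sets carrying a symbol with these stems together with another symbol were left out. *Ndufa11* and *Ndufs6* of complex I had only such probe sets and are therefore not among the members. None of the 13 subunits encoded by mitochondrial DNA was measured (0 of 13).

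The PMs were mouse cells in culture. They received lipofectamine alone, a scramble oligonucleotide or antagomir-21, an oligonucleotide that binds and silences miR-21, and then exosomes from sensory neurons that overexpressed either miR-21 or a GFP reporter. These 3 transfections and both exosomes made 6 groups, with 2 arrays in each. Every group received exosomes, so no array shows PMs without them. The lipofectamine groups were named in the labels alone and were read as the reagent without oligonucleotide. The labels give neither the strain nor the age of the mice, and do not say whether arrays of a group came from separate mice or cultures. The study's methods describe independent biological replicates, 3 per condition, but the labels do not tie the 2 arrays of a group to them. The p-values measure the spread between these arrays. The arrays read messenger RNA and not mature miRNAs, so they hold no check that miR-21 was silenced or delivered.

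The respiratory chain sits in the inner mitochondrial membrane. Complex I takes electrons from NADH and complex II from succinate, complex III passes them from ubiquinol to cytochrome c, and complex IV hands them to oxygen. Complexes I, III and IV pump protons, and complex V lets the protons flow back to make ATP. Complexes I, III, IV and V combine subunits from nuclear and mitochondrial genes, whereas complex II is wholly nuclear. In macrophages the chain is known for its link to activation: inflammatory stimuli lower oxidative phosphorylation and raise succinate, and alternatively activated cells rely on it more.

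The molecule that both treatments concern is shown first, with the seed at bases 2 to 8 in capitals. It is encoded on chr11:86584120-86584141, minus strand, of GRCm38.p6 (sequence from RefSeq).
miR-21a-5p: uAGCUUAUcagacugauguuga

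Genes of the chain are known to share promoter elements, above all the binding letters of the transcription factor NRF1. The RefSeq promoters, from 250 bases before to 50 after the start, were matched for 71 of the 87 members. The NRF1 consensus, read on either strand and shown in capitals in the sequences listed here, stood in 17 of the 71 (23.9%) against 7.10% of 17420 other protein-coding genes. By complex it stood in 6 of 15 promoters of complex V, 5 of 31 of complex I, 2 of 3 of complex II, 1 of 5 of complex III and 1 of 13 of complex IV. It also stood in 2 of 4 promoters of the complex II assembly factors. The ETS-type letters CCGGAAG stood in 20 promoters (28.2% against 12.9%), the YY1 letters AAGATGGC in 9 (12.7% against 3.53%) and the ERR letters TCAAGGTCA in 2 (2.82% against 0.367%). The YY1 letters were found in 6 promoters of complex I and 3 of complex V and in none of complexes II, III and IV. These are matches of letters, not measured binding. Up to 2 of the brightest members of each complex with an NRF1-type match wholly before the start are shown, with 30 bases on the gene's strand and the match in capitals (GRCm38.p6). The matches of *Ndufa6* and of *Uqcrc1*, the complex III gene that holds them, lie after the start and are not shown.
Ndufa5, chr6:24527697-24527726, minus strand: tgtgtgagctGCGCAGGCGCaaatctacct
Ndufs5, chr4:123718265-123718294, minus strand: gctgcttgctGCGCAGGCGCagacccgctg
Sdha, chr13:74350319-74350348, minus strand: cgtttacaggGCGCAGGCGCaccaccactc
Sdhd, chr9:50603909-50603938, minus strand: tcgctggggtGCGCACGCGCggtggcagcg
Cox6a1, chr5:115349101-115349130, minus strand: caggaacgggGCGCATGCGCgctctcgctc
Atp5k, chr5:108434430-108434459, minus strand: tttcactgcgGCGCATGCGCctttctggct
Atp5h, chr11:115420041-115420070, minus strand: gaccccgacgGCGCAGGCGCcgcgcccgcc

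The macrophage label was checked with markers. All 9 macrophage markers, among them *Csf1r*, *Adgre1* and *Lyz2*, lay above the median gene, and their mean log2 signal ranged from 10.54 to 11.91 over the arrays. The 3 B cell markers measured also lay above the median gene, with means from 8.43 to 11.07. Of the markers of other cells, 1 of 4 for T and NK cells, 2 of 5 for mast cells, 2 of 4 for dendritic cells, 0 of 5 mesothelial and 0 of 5 sensory neuron markers lay above it. The B cell mean was 8.43 and 9.44 with lipofectamine alone and miR-21 exosomes and 10.87 and 11.07 with antagomir-21 and GFP exosomes. The part of B cell RNA in the values below was not tested. In RNA of whole cultures, fewer cells of a type and less RNA per cell cannot be told apart.

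Signals of the chain were high on these arrays. The mean log2 signal of 75 of the 87 members lay above that of the median gene, and 64 lay above the upper quartile. Probe sets differ in how brightly they report a transcript, so this describes the probe sets and not the amounts of RNA. The brightest were *Ndufc2* (mean 15.55), *Ndufc1* (15.43), both accessory subunits of complex I, and *Uqcrb* of complex III (15.27). The dimmest was *Cox4i2* (5.74), an isoform known from lung.

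The deposited signals of the members moved with the spread of each array. The SD of the signals of all genes ran from 2.02 on the array of replicate 1 of scramble with miR-21 exosomes to 2.57 on that of replicate 2 of antagomir-21 with GFP exosomes. The median signal of the 87 members was lowest on the first of these arrays, at 10.18, and highest, at 11.58, on replicate 1 of antagomir-21 with miR-21 exosomes, where the SD was 2.55. It thus ranged over 1.40. To set this aside, each member was expressed on each array as its difference from the median of the 100 other genes nearest to it in mean signal, and a complex as the median of its members. On that scale the median of all members ranged over 0.536, from -0.20 to 0.34. A complex lies near 0 over the 12 arrays by construction, so only its differences between arrays are informative.

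**Figure D1:**
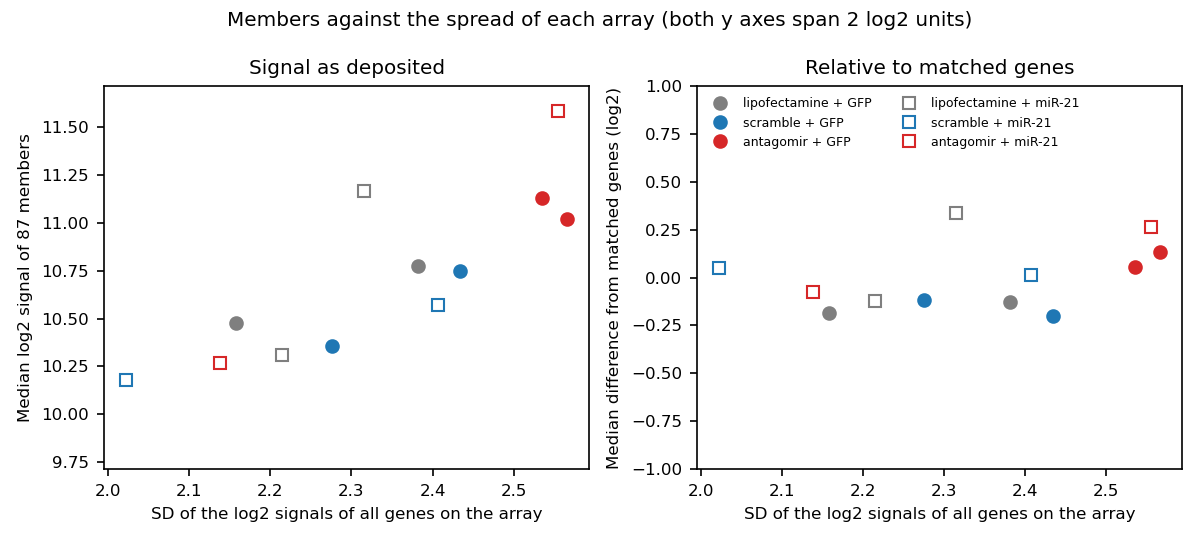
Median of the 87 members on each of the 12 arrays (y axis, log2) against the SD of the log2 signals of all genes on that array (x axis), with the signal as deposited on the left and the difference from genes of matched brightness on the right. Grey marks lipofectamine alone, blue scramble and red antagomir-21, and filled circles mark GFP and open squares miR-21 exosomes. The deposited medians run from 10.18 to 11.58 and climb with the SD, and the matched differences run from -0.20 to 0.34.

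Relative to matched genes, all members together lay at -0.18 and -0.13 with lipofectamine alone and GFP exosomes, -0.12 and -0.20 with scramble and GFP exosomes, 0.05 and 0.13 with antagomir-21 and GFP exosomes, 0.34 and -0.12 with lipofectamine alone and miR-21 exosomes, 0.05 and 0.01 with scramble and miR-21 exosomes, and 0.26 and -0.07 with antagomir-21 and miR-21 exosomes. The arrays of lipofectamine alone or scramble with GFP exosomes were all below 0, as were replicate 2 of lipofectamine alone and of antagomir-21 with miR-21 exosomes. Groups overlapped between miR-21 and GFP exosomes (difference 0.15), between antagomir-21 and scramble (0.16) and between oligonucleotide and lipofectamine alone (0.04). The SD between arrays of a group, pooled over groups, was 0.169.

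Complex I, which oxidizes NADH, lay at -0.32 and -0.17 with lipofectamine alone and GFP exosomes, 0.02 and -0.22 with scramble and GFP exosomes, -0.14 and 0.04 with antagomir-21 and GFP exosomes, 0.40 and -0.09 with lipofectamine alone and miR-21 exosomes, -0.04 and 0.05 with scramble and miR-21 exosomes, and 0.16 and 0.01 with antagomir-21 and miR-21 exosomes. Its mean was 0.21 higher with miR-21 than with GFP exosomes, against a pooled SD of 0.179, and the 6 arrays on each side overlapped. Antagomir-21 differed from scramble by 0.07, and the arrays overlapped here too. The highest array, replicate 1 of lipofectamine alone with miR-21 exosomes, was also the highest for complexes II and V.

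Complex II, succinate dehydrogenase, joins the chain to the TCA cycle. It lay at -0.42 and -0.40 with lipofectamine alone and GFP exosomes, -0.33 and -0.39 with scramble and GFP exosomes, 0.18 and 0.10 with antagomir-21 and GFP exosomes, 0.49 and -0.03 with lipofectamine alone and miR-21 exosomes, 0.17 and 0.04 with scramble and miR-21 exosomes, and 0.20 and -0.11 with antagomir-21 and miR-21 exosomes. The 4 arrays of lipofectamine alone or scramble with GFP exosomes, between -0.42 and -0.33, were the lowest of the 12, and the other 8 lay between -0.11 and 0.49. The mean with miR-21 exosomes was 0.34 higher than with GFP exosomes (pooled SD 0.183), although the antagomir-21 arrays with GFP exosomes, at 0.18 and 0.10, made the sides overlap. The difference rests on which probe set stands for each of its 4 genes: it was 0.04 with the mean over all probe sets of a gene and 0.10 with probe sets free of a suffix for shared probes. The antagomir-21 difference was 0.22, and its interaction with exosome type was -0.56.

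Complex III passes electrons to cytochrome c. It lay at -0.13 and -0.12 with lipofectamine alone and GFP exosomes, -1.14 and -0.20 with scramble and GFP exosomes, 0.11 and 0.28 with antagomir-21 and GFP exosomes, 0.13 and 0.24 with lipofectamine alone and miR-21 exosomes, 0.15 and 0.11 with scramble and miR-21 exosomes, and 0.20 and -0.06 with antagomir-21 and miR-21 exosomes. Replicate 1 of scramble with GFP exosomes stood apart at -1.14, whereas the other 11 arrays lay between -0.20 and 0.28. On that array *Uqcr11*, *Uqcrfs1* and *Uqcr10* were 3.53, 3.29 and 1.65 below their matched genes. Antagomir-21 was 0.40 above scramble over both exosomes, and 0.13 without that array. The value was 0.74 without replicate 2 of the same group. With probe sets free of a suffix for shared probes that difference was 0.90. The interaction was -0.93 with all arrays, and turned to 0.29 with those probe sets. It was -0.08 without replicate 1 of scramble with GFP exosomes, -1.73 without replicate 2 of that group and -0.38 without replicate 1 of scramble with miR-21 exosomes.

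Complex IV, cytochrome c oxidase, lay at -0.01 and -0.21 with lipofectamine alone and GFP exosomes, -0.21 and -0.28 with scramble and GFP exosomes, -0.09 and 0.24 with antagomir-21 and GFP exosomes, 0.08 and -0.19 with lipofectamine alone and miR-21 exosomes, 0.28 and 0.21 with scramble and miR-21 exosomes, and 0.16 and -0.21 with antagomir-21 and miR-21 exosomes. With scramble, both miR-21 exosome arrays were above both GFP exosome arrays. Without the tissue-restricted isoforms these scramble arrays overlapped, at 0.285 and 0.01 with miR-21 exosomes and 0.30 and -0.35 with GFP exosomes. With antagomir-21 the arrays of the 2 exosomes overlapped. Averaged over the transfections, miR-21 exosomes differed from GFP exosomes by 0.15 and antagomir-21 from scramble by 0.03, with overlap in both. The interaction of -0.60 was -0.13 when the tissue-restricted isoforms were left out, a choice made after seeing the data.

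Complex V, the ATP synthase, lay at -0.18 and -0.07 with lipofectamine alone and GFP exosomes, -0.11 and -0.02 with scramble and GFP exosomes, 0.11 and 0.15 with antagomir-21 and GFP exosomes, 0.45 and -0.18 with lipofectamine alone and miR-21 exosomes, -0.12 and -0.32 with scramble and miR-21 exosomes, and 0.41 and -0.07 with antagomir-21 and miR-21 exosomes. Antagomir-21 lay 0.29 above scramble over both exosomes (pooled SD 0.238), and the arrays overlapped, since replicate 2 of antagomir-21 with miR-21 exosomes was at -0.07 and replicate 2 of scramble with GFP exosomes at -0.02. The scramble arrays with miR-21 exosomes were both below the antagomir-21 arrays with GFP exosomes, a comparison in which transfection and exosome both differ (difference -0.35). Exosomes differed by 0.05 and the oligonucleotides from lipofectamine alone by less than 0.01 (-0.0045).

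**Figure D2:**
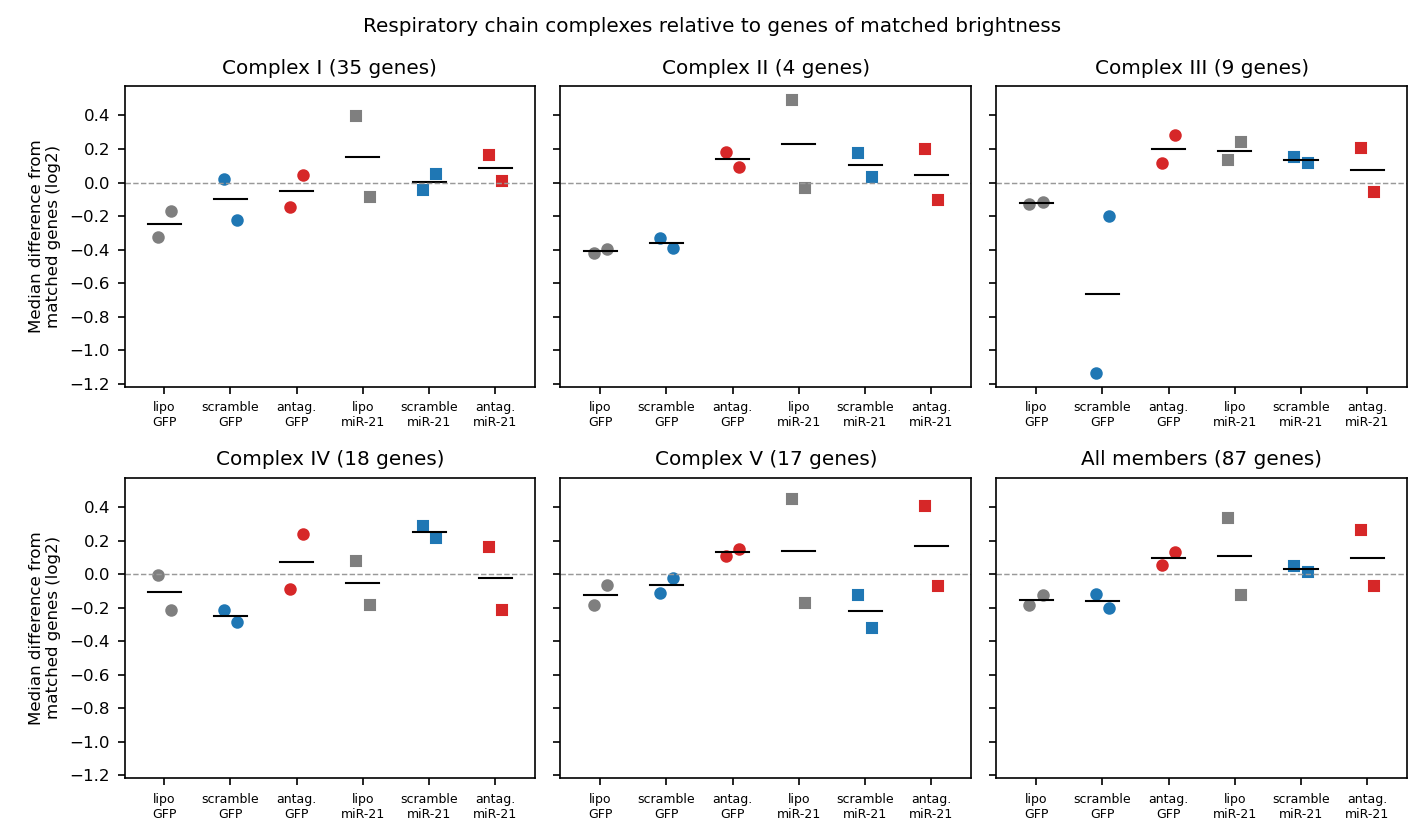
Level of each complex on each array, as the median difference of its members from genes of matched brightness (y axis, log2), in the 6 groups (x axis). Grey, blue and red mark lipofectamine alone, scramble and antagomir-21, circles GFP and squares miR-21 exosomes, and bars the mean of 2 arrays. Complex II lies between -0.42 and -0.33 in 4 GFP exosome arrays, and complex III has 1 array at -1.14.

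No complex separated its arrays between miR-21 and GFP exosomes, antagomir-21 and scramble, or oligonucleotide and lipofectamine alone, so in each of these comparisons the arrays of both sides overlapped. Complexes II and III varied most between groups. They are also the smallest sets, with 4 and 9 members, and a median of few genes can vary more. The SD of their 6 group means was 0.273 and 0.332, and the pooled SDs of single arrays within groups were 0.183 and 0.287. For complexes I, IV and V these values were 0.142, 0.169 and 0.163, and 0.179, 0.176 and 0.238. A mean of 2 arrays varies less than a single array, so the pooled SDs are too wide a yardstick for the group means. The value of complex III includes the array at -1.14. These values describe the complexes and were not tested, since the members were chosen with results of these arrays known.

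Single members were then tested on the deposited log2 signals. With miR-21 against GFP exosomes over the 3 transfections, no member passed an adjusted p under 0.05 in limma (0 of 87, smallest adjusted p 0.890, and 0 of 18193 genes). At an unadjusted p under 0.05, the threshold named in the study's methods, 1 of 87 members passed, against 5.45% of all genes. It was *Cox8c*. The fold changes of the members had a median of -0.08 on the log2 scale, against -0.02 over all genes, with 37 higher and 50 lower. Of the 17 complex V members 14 were lower, with a median of -0.23. The members' median turned to 0.20 with intensity-dependent centring, to 0.02 with quantile normalization, to 0.09 without replicate 1 of scramble with miR-21 exosomes and to 0.18 without replicate 2 of antagomir-21 with miR-21 exosomes, so it has no settled direction.

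With antagomir-21 against scramble over both exosomes, limma again called no member after adjustment (0 of 87, smallest adjusted p 0.729, and 0 of 18193 genes). The SE of a member's difference had a median of 0.69 on the log2 scale, so a count of 0 does not show that the members were unchanged. At an unadjusted p under 0.05 there were 3, *Ndufb10*, *Sdhaf3* and *Cox8b*, against 5.16% of all genes. The members' median log2 fold change was 0.26, against 0.00 for all genes (-0.0040), with 58 higher and 29 lower. By complex the medians were 0.10 for I, 0.18 for II, 0.50 for III, -0.06 for IV and 0.46 for V, where 15 of 17 members were higher. All 4 complex II assembly factors were higher, with a median of 0.75. The members' median of 0.26 is on the scale of the deposited signal, where the arrays' spread enters. It was -0.02 without replicate 1 of antagomir-21 with miR-21 exosomes and 0.06 without replicate 1 of scramble with miR-21 exosomes. Median centring, which shifted the median of all genes to 0.15, gave 0.41.

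The share of genes called moved with the signal. Over the 9096 genes above the median signal, 1.77% passed an unadjusted p under 0.05 for antagomir-21 against scramble, and over the 9097 others 8.55% did. Of the members, 1 of 75 above the median gene and 2 of 12 below it passed.

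For oligonucleotide against lipofectamine alone, 0 of 87 members passed at an adjusted or an unadjusted p under 0.05 in limma, against 4.05% of all genes at the latter. The members' median was 0.16, with 58 higher and 29 lower. The closest were *Sdhaf4* (log2 fold change 1.66, 95% interval -0.11 to 3.43) and *Cox8c* (-1.30, -2.72 to 0.12). For the interaction, the antagomir-21 difference with miR-21 exosomes minus that with GFP exosomes, 4 of 87 members passed an unadjusted p under 0.05, against 5.36% of all genes, and none after adjustment (smallest adjusted p 0.828 in limma). They were *Atp5g2*, *Cox8c*, *Cox8b* and *Cox7a1*. The median over members was -0.25, against -0.12 over all genes. Any difference among the 6 groups was seen for *Cox8b* and *Cox8c*, 2 of 87, at an unadjusted p under 0.05 in limma's F test, against 5.96% of all genes, and for none after adjustment (smallest adjusted p 0.739).

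**Figure D3:**
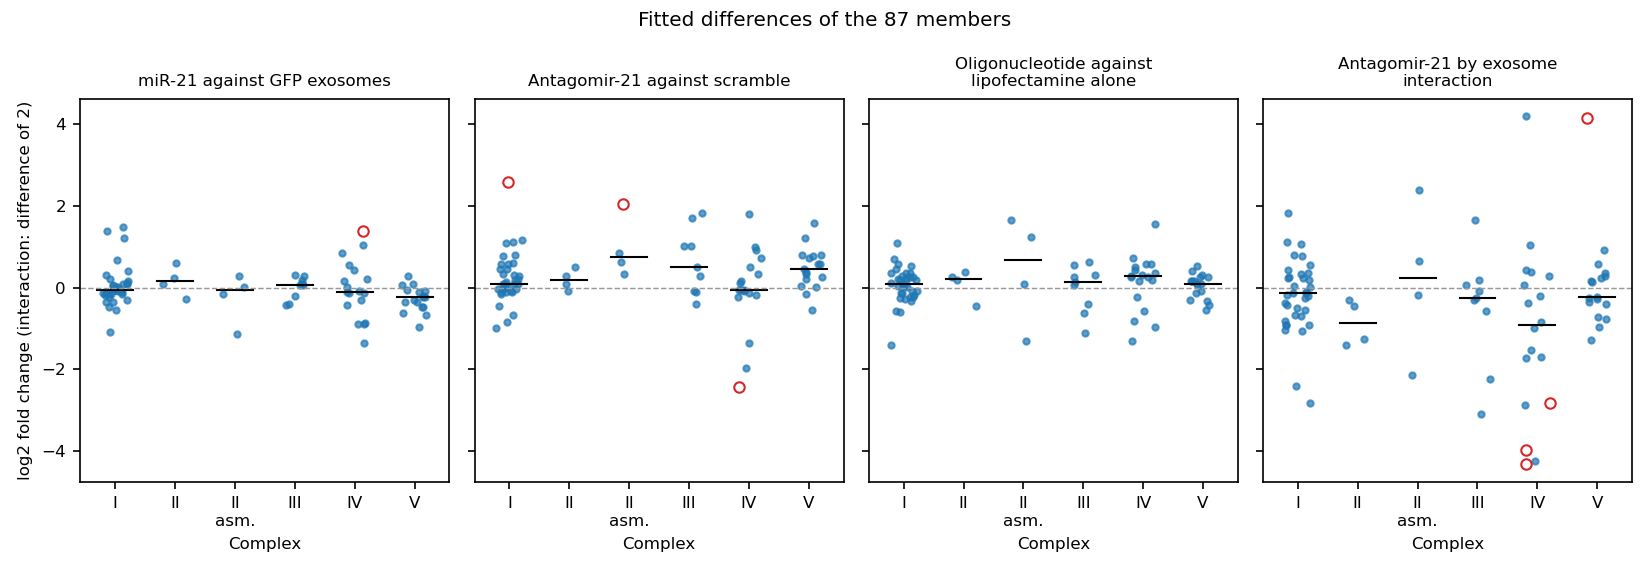
Fitted log2 differences of the 87 members (y axis) by complex (x axis) in 4 comparisons. Each point is a gene, open red circles are members with an unadjusted p under 0.05, and bars are medians. The members scatter on both sides of 0 in every complex with more than 4 genes. For antagomir-21 against scramble the medians run from -0.06 in complex IV to 0.75 in the complex II assembly factors.

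Several of the subunits taken here as core carry redox centres or catalytic sites, but *Cox4i1*, *Cox5a* and *Uqcrc1* do not. None of the subunits taken as core passed an unadjusted p under 0.05 in limma in the comparisons of exosomes or of antagomir-21. *Sdha*, the flavoprotein that oxidizes succinate, had signals of 12.14 and 12.63 with lipofectamine alone and GFP exosomes, 11.69 and 12.87 with scramble and GFP exosomes, 12.93 and 13.08 with antagomir-21 and GFP exosomes, 12.05 and 12.34 with lipofectamine alone and miR-21 exosomes, 11.68 and 12.68 with scramble and miR-21 exosomes, and 13.27 and 11.64 with antagomir-21 and miR-21 exosomes. All 12 arrays lay between 11.64 and 13.27. With GFP exosomes both antagomir-21 arrays were above both scramble arrays, and with miR-21 exosomes they overlapped. The antagomir-21 difference was 0.50 on the log2 scale, with a 95% interval from -0.95 to 1.95, and that of miR-21 exosomes -0.28, from -1.46 to 0.90. *Sdhb*, its iron-sulfur partner, differed by 0.29 (-0.996 to 1.58) and 0.09 (-0.96 to 1.14).

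*Ndufs1* and *Ndufv1* encode electron-carrying subunits of complex I. *Ndufs1* had signals of 9.85 and 10.60 with lipofectamine alone and GFP exosomes, 10.00 and 9.82 with scramble and GFP exosomes, 9.62 and 9.97 with antagomir-21 and GFP exosomes, 10.08 and 10.00 with lipofectamine alone and miR-21 exosomes, 9.55 and 10.09 with scramble and miR-21 exosomes, and 10.62 and 9.16 with antagomir-21 and miR-21 exosomes. Its antagomir-21 difference was -0.02 (95% interval -1.37 to 1.33) and its exosome difference -0.06 (-1.16 to 1.05). *Ndufv1*, the NADH-binding subunit, ranged from 8.52 to 10.64, with differences of 0.57 (-0.93 to 2.08) and 0.02 (-1.21 to 1.25). Intervals this wide leave room for changes of 2-fold, 1 on the log2 scale, in either direction for *Ndufs1*.

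The complex III core was more scattered. *Cyc1*, cytochrome c1, had signals of 8.91 and 9.48 with lipofectamine alone and GFP exosomes, 9.11 and 10.12 with scramble and GFP exosomes, 9.68 and 9.93 with antagomir-21 and GFP exosomes, 9.76 and 8.81 with lipofectamine alone and miR-21 exosomes, 6.19 and 10.09 with scramble and miR-21 exosomes, and 10.62 and 9.37 with antagomir-21 and miR-21 exosomes. Replicate 1 of scramble with miR-21 exosomes, at 6.19, lay far under the other 11 arrays, and the antagomir-21 difference of 1.02 had a 95% interval from -0.91 to 2.95. *Uqcrfs1*, the Rieske iron-sulfur protein, had signals of 9.48 and 9.14 with lipofectamine alone and GFP exosomes, 5.96 and 9.89 with scramble and GFP exosomes, 9.52 and 10.06 with antagomir-21 and GFP exosomes, 9.29 and 9.93 with lipofectamine alone and miR-21 exosomes, 6.73 and 9.33 with scramble and miR-21 exosomes, and 10.17 and 9.02 with antagomir-21 and miR-21 exosomes. Both replicate 1 arrays of scramble, at 5.96 and 6.73, were low, and the others lay between 9.02 and 10.17. Its antagomir-21 difference was 1.72 (-0.37 to 3.81). *Uqcrc1* differed by 0.50 (-1.02 to 2.02).

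In complex IV, *Cox4i1*, the common isoform of subunit 4, had signals of 10.64 and 11.28 with lipofectamine alone and GFP exosomes, 6.93 and 11.65 with scramble and GFP exosomes, 11.73 and 11.98 with antagomir-21 and GFP exosomes, 11.56 and 9.05 with lipofectamine alone and miR-21 exosomes, 10.01 and 9.44 with scramble and miR-21 exosomes, and 12.20 and 9.34 with antagomir-21 and miR-21 exosomes. Replicate 1 of scramble with GFP exosomes was lowest, at 6.93, beside 11.65 in replicate 2 of the same group. With GFP exosomes both antagomir-21 arrays were above both scramble arrays, and with miR-21 exosomes they overlapped. The antagomir-21 difference of 1.80 had a 95% interval from -0.64 to 4.24. *Cox5a* stayed between 11.83 and 13.45, with differences of -0.13 for antagomir-21 (-1.59 to 1.34) and 0.01 for exosomes (-1.19 to 1.20). In complex V, *Atp5b*, the catalytic beta subunit, had signals of 10.15 and 11.56 with lipofectamine alone and GFP exosomes, 10.74 and 12.07 with scramble and GFP exosomes, 11.96 and 12.09 with antagomir-21 and GFP exosomes, 12.20 and 9.75 with lipofectamine alone and miR-21 exosomes, 10.43 and 10.98 with scramble and miR-21 exosomes, and 12.67 and 10.70 with antagomir-21 and miR-21 exosomes. The arrays of lipofectamine alone with miR-21 exosomes, at 12.20 and 9.75, nearly spanned the range. Its antagomir-21 difference was 0.80 (-0.97 to 2.57), and that of *Atp5a1*, the alpha subunit, 0.39 (-1.29 to 2.08).

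Over 12 contrasts between groups, 9 of the 87 members passed an unadjusted p under 0.05 at least once, with 27 such results in all and none after adjustment. By contrast the counts were 0 of 87 for miR-21 against GFP exosomes with lipofectamine alone (3.84% of all genes), 4 with scramble (5.70%) and 1 with antagomir-21 (5.68%). Antagomir-21 against scramble gave 2 with GFP exosomes (5.38%) and 4 with miR-21 exosomes (5.30%), and scramble against lipofectamine alone gave 1 (2.54%) and 4 (5.68%). Between the miR-21 exosome group with scramble and the GFP exosome group with antagomir-21 the count was 3 (7.17%). Each was a smaller share of the members than of all genes, but bright genes were called less often and most members are bright. Against genes on the same side of the median signal the order turned in some comparisons. For antagomir-21 against scramble with miR-21 exosomes, 2.67% of the 75 brighter members passed against 2.46% of genes, and 16.7% of the 12 dimmer ones against 8.15%. For the interaction these shares were 2.67% against 2.02% and 16.7% against 8.70%. The shares therefore show nothing particular to the members, and the contrasts share arrays. Of the 9 members, 5 were among 8 genes grouped here as tissue-restricted isoforms and 4 among the other 79. The 8 were named after their values were seen and include *Ndufa4l2*, known for induction by hypoxia. The share of all genes passing at least 1 of the 12 contrasts was not counted. *Cox4i2*, *Cox6b2*, *Cox7b2*, *Cox8b*, *Cox8c* and *Ndufa4l2* lay below the median gene, where genes were called more often. The counts of 5 and 4 therefore show no trait of these isoforms.

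*Cox8b* encodes the subunit 8 isoform of heart and skeletal muscle. Its signals were 7.71 and 8.64 with lipofectamine alone and GFP exosomes, 8.06 and 7.82 with scramble and GFP exosomes, 7.92 and 7.05 with antagomir-21 and GFP exosomes, 5.55 and 7.38 with lipofectamine alone and miR-21 exosomes, 9.88 and 9.02 with scramble and miR-21 exosomes, and 4.07 and 5.96 with antagomir-21 and miR-21 exosomes. With miR-21 exosomes the scramble arrays were the highest of the 12 and the antagomir-21 arrays, with 1 lipofectamine array between them, among the lowest, and these groups did not overlap. With GFP exosomes scramble and antagomir-21 overlapped. Over both exosomes antagomir-21 was lower by a log2 fold change of -2.44 (SE 0.72, 95% interval -4.04 to -0.84, adjusted p 0.729 in limma), and the interaction was -3.98 (SE 1.45, -7.18 to -0.77, adjusted p 0.874). Leaving out single arrays gave -2.91 to -1.97 and -4.92 to -3.03. *Cox8b* had 1 probe set and a mean signal above that of 39.0% of all genes.

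*Cox8c*, the testis isoform of the same subunit, gave another order. Its signals were 7.21 and 7.74 with lipofectamine alone and GFP exosomes, 5.41 and 4.15 with scramble and GFP exosomes, 7.71 and 8.15 with antagomir-21 and GFP exosomes, 9.84 and 8.37 with lipofectamine alone and miR-21 exosomes, 7.80 and 8.62 with scramble and miR-21 exosomes, and 5.88 and 8.19 with antagomir-21 and miR-21 exosomes. The scramble arrays with GFP exosomes were the lowest, and lipofectamine alone with miR-21 exosomes held the highest. With miR-21 against GFP exosomes the difference was 1.39 (SE 0.60, 95% interval 0.05 to 2.73, adjusted p 0.890 in limma), and the arrays overlapped. The interaction was -4.33 (SE 1.47, -7.60 to -1.05, adjusted p 0.828 in limma). A second probe set of *Cox8c* gave -4.04, but it was dim (mean 5.54) and ran from 1.67 to 9.25 over the arrays. For antagomir-21 against scramble the 2 probe sets had opposite signs, 0.987 from the one used and -0.425 from the second.

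*Cox7a1*, the heart and muscle isoform of subunit 7a, had signals of 7.97 and 6.75 with lipofectamine alone and GFP exosomes, 6.29 and 7.33 with scramble and GFP exosomes, 8.54 and 8.93 with antagomir-21 and GFP exosomes, 8.15 and 7.82 with lipofectamine alone and miR-21 exosomes, 9.14 and 9.22 with scramble and miR-21 exosomes, and 8.71 and 7.85 with antagomir-21 and miR-21 exosomes. Scramble arrays were the lowest on average with GFP exosomes and the highest with miR-21 exosomes. The interaction was -2.83 (SE 1.24, adjusted p 0.920 in limma) and lay between -3.35 and -2.31 with single arrays left out. *Cox7b2*, known from testis, had signals of 9.43 and 9.30 with lipofectamine alone and GFP exosomes, 9.21 and 9.13 with scramble and GFP exosomes, 5.28 and 4.91 with antagomir-21 and GFP exosomes, 4.51 and 9.01 with lipofectamine alone and miR-21 exosomes, 8.54 and 5.51 with scramble and miR-21 exosomes, and 5.26 and 9.04 with antagomir-21 and miR-21 exosomes. Its values fell near 9 or near 5, with few between, and the antagomir-21 arrays with GFP exosomes were both near 5. That contrast was -4.08 (SE 1.65, adjusted p 0.847 in limma), and with miR-21 exosomes scramble and antagomir-21 overlapped.

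*Ndufa4l2*, a hypoxia-induced paralog of *Ndufa4* counted here in complex I by its symbol, had signals of 6.80 and 7.90 with lipofectamine alone and GFP exosomes, 4.90 and 6.16 with scramble and GFP exosomes, 3.92 and 8.01 with antagomir-21 and GFP exosomes, 5.15 and 8.33 with lipofectamine alone and miR-21 exosomes, 9.67 and 8.47 with scramble and miR-21 exosomes, and 5.48 and 7.88 with antagomir-21 and miR-21 exosomes. After scramble, miR-21 exosomes were 3.54 higher than GFP exosomes (SE 1.54, adjusted p 0.862 in limma), without overlap of the 2 arrays each. The remaining tissue-restricted isoforms passed no contrast. *Cox6a2* of muscle ranged from 3.74 to 10.33, *Cox4i2* from 3.70 to 9.54 and *Cox6b2* of testis from 3.44 to 8.17. As a set of 8, the tissue-restricted isoforms ranged over 2.60 relative to matched genes, from -1.64 on replicate 1 of antagomir-21 with miR-21 exosomes to 0.96 on replicate 2 of scramble with miR-21 exosomes. No comparison over all transfections separated their arrays.

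Of the common subunits, *Ndufb10*, an accessory subunit of complex I, had signals of 9.88 and 10.77 with lipofectamine alone and GFP exosomes, 6.59 and 10.68 with scramble and GFP exosomes, 11.13 and 10.19 with antagomir-21 and GFP exosomes, 7.99 and 9.32 with lipofectamine alone and miR-21 exosomes, 6.25 and 8.31 with scramble and miR-21 exosomes, and 10.70 and 10.16 with antagomir-21 and miR-21 exosomes. All antagomir-21 arrays lay above 10, and scramble arrays lay between 6.25 and 8.31 apart from 1 at 10.68, so the 4 arrays on each side overlapped. The difference was 2.59 (SE 0.95, 95% interval 0.49 to 4.69, adjusted p 0.825 in limma) and lay between 1.57 and 3.61 with single arrays left out. *Atp5g2*, 1 of 3 genes for subunit c of the ATP synthase rotor, had signals of 9.48 and 9.11 with lipofectamine alone and GFP exosomes, 9.90 and 8.99 with scramble and GFP exosomes, 9.63 and 8.30 with antagomir-21 and GFP exosomes, 9.03 and 8.80 with lipofectamine alone and miR-21 exosomes, 7.57 and 4.62 with scramble and miR-21 exosomes, and 9.90 and 9.64 with antagomir-21 and miR-21 exosomes. Only the scramble arrays with miR-21 exosomes were under 8. The interaction was 4.16 (SE 1.52, adjusted p 0.874 in limma), but 2 other probe sets of *Atp5g2* gave -3.18 and -2.70, and the mean over its probe sets -0.58, so its direction depends on the probe set. The sister genes ranged from 6.60 to 9.67 (*Atp5g1*) and from 11.10 to 13.55 (*Atp5g3*).

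*Sdhaf3* and *Sdhaf1* assist the iron-sulfur subunit of complex II. *Sdhaf3* had signals of 7.18 and 8.50 with lipofectamine alone and GFP exosomes, 6.33 and 8.19 with scramble and GFP exosomes, 8.14 and 8.09 with antagomir-21 and GFP exosomes, 10.42 and 8.35 with lipofectamine alone and miR-21 exosomes, 4.31 and 6.34 with scramble and miR-21 exosomes, and 9.14 and 8.01 with antagomir-21 and miR-21 exosomes. The scramble arrays with miR-21 exosomes held the lowest value and lay under every array of the other miR-21 exosome groups. Antagomir-21 was 2.05 higher than scramble over both exosomes (SE 0.81, 95% interval 0.25 to 3.85, adjusted p 0.905 in limma), and another probe set of *Sdhaf3* gave -0.77. *Sdhaf1* had signals of 7.85 and 7.39 with lipofectamine alone and GFP exosomes, 7.04 and 6.22 with scramble and GFP exosomes, 8.76 and 8.36 with antagomir-21 and GFP exosomes, 6.30 and 5.28 with lipofectamine alone and miR-21 exosomes, 7.94 and 8.84 with scramble and miR-21 exosomes, and 9.77 and 6.58 with antagomir-21 and miR-21 exosomes. With miR-21 exosomes scramble exceeded lipofectamine alone by 2.60 (SE 1.11, adjusted p 0.842 in limma).

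**Figure D4:**
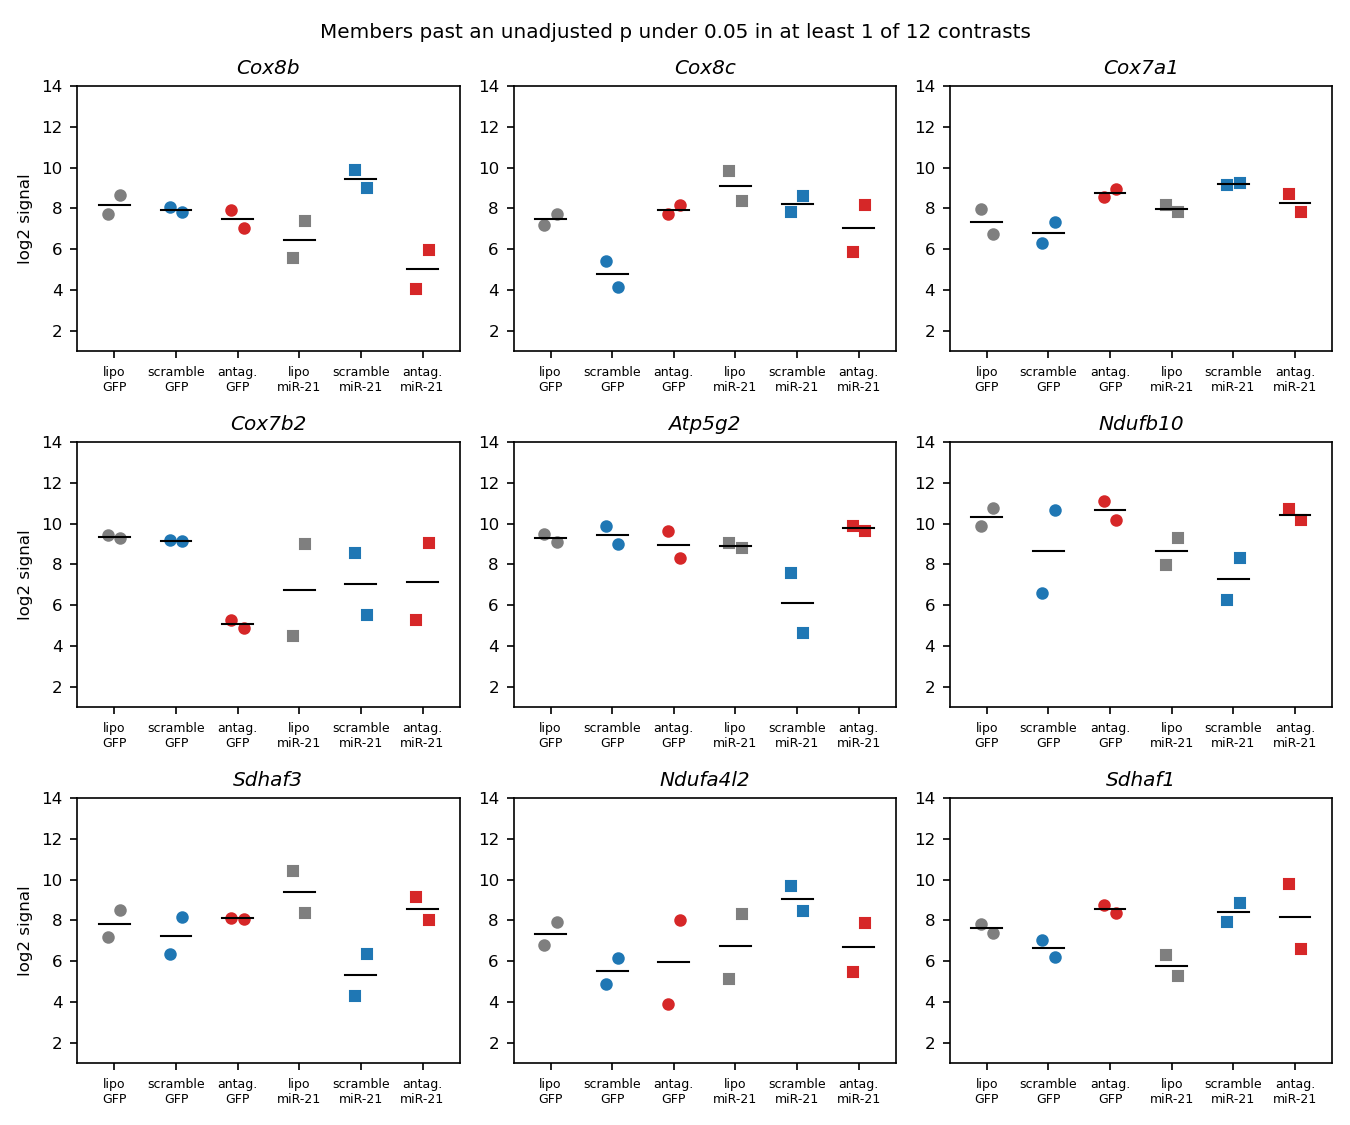
Deposited log2 signal (y axis) on each array of the 9 members with an unadjusted p under 0.05 in at least 1 of 12 contrasts, in the 6 groups (x axis). Grey, blue and red mark lipofectamine alone, scramble and antagomir-21, circles GFP and squares miR-21 exosomes, and bars the mean of 2 arrays. *Cox8b* is highest with scramble and miR-21 exosomes and lowest with antagomir-21 and miR-21 exosomes, and *Cox7b2* splits into values near 9 and near 5.

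Relative to matched genes, the widest ranges over the 12 arrays were 7.14 for *Ndufb4* and 6.42 for *Ndufb1* in complex I, 2.26 for *Sdhc* and 2.01 for *Sdhd* in complex II, 4.69 for *Uqcr11* and 4.57 for *Cyc1* in complex III, 5.99 for *Cox6a2* and 5.86 for *Cox4i2* in complex IV, and 5.42 for *Atp5g2* and 2.96 for *Atp5g1* in complex V. *Ndufb4*, an accessory subunit, had its lowest signal, 4.28, on replicate 1 of scramble with miR-21 exosomes and its highest, 9.97, on replicate 1 of lipofectamine alone with miR-21 exosomes. *Ndufb11* and *Sdha* had ranges of 0.77 and 0.78. The median SD within groups was 0.781 over members and 0.766 for their matched genes, and 49 of 87 members were below their matched value. All genes had a median of 1.39. The members were thus about as variable between replicate arrays as other bright genes.

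The genes that build and regulate the chain had no adjusted calls either. Their differences are on the scale of the deposited signal, where the arrays' spread enters. They were not set against genes of matched brightness or repeated with single arrays left out. Of 15 complex I assembly factors measured, 11 were lower with antagomir-21 than with scramble (median -0.29), the other way from the complex I subunits' median of 0.10, and this difference of directions was not tested. Only *Ndufaf7*, an arginine methyltransferase, passed an unadjusted p under 0.05 there (log2 fold change 3.27, SE 0.82, adjusted p 0.676 in limma). That was 1 of 15, against 5.16% of all genes. *Ndufaf2* had an interaction of -4.63 (SE 1.46, adjusted p 0.802). Among 18 complex IV assembly factors, *Coa4* was 2.10 higher with antagomir-21 (SE 0.73, adjusted p 0.795 in limma) and had an interaction of -4.95 (SE 1.47, adjusted p 0.774). *Sco1*, a copper chaperone, was 1.33 higher with oligonucleotide than with lipofectamine alone (SE 0.55, adjusted p 0.999 in limma). *Bcs1l*, which inserts the Rieske protein into complex III, was 1.73 higher in that comparison (SE 0.55, adjusted p 0.999 in limma). Each of these genes was the only 1 of its list past an unadjusted p under 0.05 in the comparison named. Of all genes 5.16% passed in limma for antagomir-21, 5.36% for the interaction and 4.05% for oligonucleotide.

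Of 13 regulators of mitochondrial biogenesis, 10 were higher with antagomir-21 (median 0.46) and 8 lower with miR-21 exosomes (median -0.24), again on the scale of the deposited signal. None of them passed an unadjusted p under 0.05 in limma in either comparison. *Tfam*, which packages mitochondrial DNA, differed by 2.17 (SE 1.21, 95% interval -0.52 to 4.86), and *Nrf1*, the factor whose letters stood in 17 member promoters, by -1.03 (SE 0.90, -3.02 to 0.96). *Twnk*, the mitochondrial helicase, had an interaction of -4.30 (SE 1.36, adjusted p 0.802 in limma). It was the only 1 of the 13 past an unadjusted p under 0.05 there, against 5.36% of all genes. The 3 complex V assembly factors had medians of -0.06 with antagomir-21 and -0.09 with miR-21 exosomes, with no call at either threshold.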

How the data were processed

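Probe set signals were deposited by the authors as log2 values from Affymetrix Mouse 430 2.0 arrays. The methods describe RMA with quantile normalization. Over all probe sets, array medians of 7.92 to 8.58 and SDs of 2.04 to 2.48 show that the deposited columns do not share 1 distribution, and the sources used here name no program for them. The methods describe 3 independent biological replicates per condition, and 2 arrays per group are analysed here. The methods and labels name different amplification kits. The number of arrays limits the precision.

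Of 45037 probe sets, 34945 had 1 gene symbol, 932 several and 9160 were not listed in the platform annotation. The brightest probe set stood for each of 18193 genes. Groups came from the labels. limma 3.58.1 in R 4.3.3 fitted 6 group means on the deposited values (lmFit and eBayes, 6 residual degrees of freedom), with Benjamini-Hochberg adjustment over all genes. The procedure was tested on simulated data. No pseudocount or filter was used.

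The members, lists and comparisons were chosen with earlier results of these data known. Named were core subunits, tissue-restricted isoforms, the 3 members with the smallest p in each direction of 4 comparisons, the 5 smallest in the F test and the 2 widest-ranging members of each complex. The text leaves out some of these whose values added nothing to the counts. Alternatives were other normalizations, probe set rules, a filter on dim genes, a variance prior that follows the signal, a replicate block, 300 matched genes, the mean over members, *Ndufa4* in complex I and leaving out each array.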

Additional observations from a re-analysis of the deposited data

How the results depend on the processing

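Of 644 alternative values of the counts and complex levels, 574 stayed close to the reported one (a count within 1.5 times, a level within the pooled SD between arrays of a group) and 70 moved, and of 477 for named genes 1 turned its direction, the *Atp5g2* interaction, which was -0.58 with the mean over all probe sets. No alternative gave a member an adjusted p under 0.05, which says nothing of stability. The 477 values belong to members picked for the smallest p on these same arrays, where a turn of sign is unlikely. They are no measure of stability. Part of the 574 was fixed in advance and is no measure of stability either. A replicate block could not change the complex levels. Moving *Ndufa4* or leaving out the tissue-restricted isoforms could not change those of complexes II, III and V. Counts of members at an unadjusted p under 0.05 are small and moved readily. For miR-21 against GFP exosomes (1) the count was 0 with median centring, the mean over all probe sets, genes above the median signal or a prior that follows the signal, and 3 with probe sets without a shared suffix. For antagomir-21 against scramble (3) the signal-dependent prior gave 6. For oligonucleotide against lipofectamine alone (0) it was 1 with intensity-dependent centring, either other probe set rule, genes above the median signal and the signal-dependent prior. For the interaction (4) it was 2 with genes above the median signal and 1 with the signal-dependent prior. For any difference (2) it was 1 with the mean over probe sets or genes above the median signal, and 4 without a shared suffix.

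With single arrays left out, these counts ranged from 0 to 3, 1 to 6, 0 to 3, 2 to 5 and 1 to 5 in the same order. The antagomir-21 count was 1 without replicate 1 of scramble with GFP exosomes, of antagomir-21 with GFP exosomes or of antagomir-21 with miR-21 exosomes, 5 without replicate 2 of the last group, and 6 without replicate 2 of either scramble group. The interaction count was 2 without replicate 1 of scramble or replicate 2 of antagomir-21 with GFP exosomes. The F test count was 1 without either array of lipofectamine alone with GFP exosomes, or replicate 1 of scramble with GFP exosomes, of lipofectamine alone with miR-21 exosomes or of antagomir-21 with miR-21 exosomes, and 5 without replicate 2 of lipofectamine alone with miR-21 exosomes. The exosome count was 2 without replicate 1 of scramble with GFP exosomes or of antagomir-21 with miR-21 exosomes, 3 without replicate 2 of lipofectamine alone or replicate 1 of scramble with miR-21 exosomes, 1 without replicate 2 of antagomir-21 with GFP exosomes and 0 without any other array. The oligonucleotide count was 1 without replicate 2 of scramble or replicate 1 of antagomir-21 with GFP exosomes, 2 without replicate 1 of lipofectamine alone or replicate 2 of antagomir-21 with miR-21 exosomes, and 3 without replicate 2 of lipofectamine alone with miR-21 exosomes.

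Arrays that share a replicate number did not deviate together (15 correlations of deviations between groups, -0.192 to 0.167). With the replicate number as a block the counts were 0, 4, 0, 3 and 3.

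Complex levels moved with the probe set and with single arrays. Without a shared suffix, the interactions of complexes I to V were -0.39, -1.49, 0.29, -0.88 and 0.65, the exosome differences of II and III 0.10 and -0.0123 and the antagomir-21 difference of III 0.90. With the mean over all probe sets, complex II had an exosome difference of 0.0414 and an interaction of -1.18, and complex III an interaction of -0.40. With the mean over members the interactions of III and IV were -0.34 and -0.81, and without tissue-restricted isoforms, a setting added after seeing the data, that of IV was -0.13. With single arrays left out the interactions ranged from -0.16 to 0.18 (I), -0.63 to -0.36 (II), -1.73 to -0.077 (III), -0.69 to -0.26 (IV) and -0.10 to 0.38 (V), and the antagomir-21 difference of III from 0.13 to 0.74. The cause of these moves was not tested. The deposited values carry no measure of background, so no limit of detection can be given.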

Other observations

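Of 12 TCA cycle enzymes measured, 10 were higher with antagomir-21 than with scramble (median log2 fold change 0.40). With miR-21 against GFP exosomes 9 were lower (median -0.19). None passed an adjusted p under 0.05 in limma in either comparison. These differences, and those of the carriers below, are on the scale of the deposited signal, where the arrays' spread enters. They were not set against genes of matched brightness or repeated with single arrays left out. *Dld*, the dihydrolipoamide dehydrogenase shared by several dehydrogenase complexes, alone passed an unadjusted p under 0.05 for exosomes (-1.57, SE 0.64, adjusted p 0.873 in limma). That was 1 of 12 enzymes, against 5.45% of all genes, and no enzyme passed for antagomir-21. Of 10 electron carriers and ADP exchange genes, 6 were higher with antagomir-21 (median 0.33) and 8 lower with miR-21 exosomes (median -0.27), with none at an unadjusted p under 0.05 in limma. *Cycs*, cytochrome c, differed by -0.15 (95% interval -1.59 to 1.29) and -0.10 (-1.28 to 1.07), and *Slc25a5*, an ADP/ATP carrier, by -0.19 (-1.66 to 1.28) and -0.23 (-1.43 to 0.97).

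Probe sets of the same gene often differed in sign. For the 51 members with several, 89 other probe sets were compared with the one used. The sign matched in 47 of 89 for antagomir-21 against scramble, in 48 for miR-21 against GFP exosomes and in 58 for the interaction. *Atp5a1* is a case of one sign, with antagomir-21 differences of 0.40, 0.58 and 0.31 from its 3 probe sets. *Sdhd* is a case of opposite signs, with exosome differences of 0.25 and -1.88.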
